A study of Mus musculus with 8 samples.

Results

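Levels of 27 genes that encode proteins of the small (40S) ribosomal subunit were compared between knockout and control embryonic mouse ventricles. The members were taken by gene symbol from a fixed list, each from its row on a primary chromosome, out of 52778 rows in the table, and all 27 were among the 15541 rows with a mean of at least 1 TPM (a level corrected for transcript length and scaled to the same total in each library). Rps27, whose protein has a close relative, was described with such relatives and not as a member. The study compared ventricular tissue of mouse embryos at embryonic day 11.5 by RNA sequencing, with 4 libraries from conditional knockout embryos (cKO) and 4 from control embryos, named as biological replicates in the series text. The cKO genotype was Rps19bp1 fl/fl with Xmlc2-Cre +/−, in which Cre recombinase removes the floxed gene in cardiomyocytes. The sources used here do not say whether the controls carried floxed alleles or Cre, or whether embryos were pooled. The genotype field names wild-type C57BL/6 for all 8 libraries, so the groups rest on the titles and the treatment field. All 8 carry batch label 1.

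The 40S subunit holds the 18S ribosomal RNA and one copy each of its proteins, and it reads the mRNA during translation. Its head carries Rps19 together with proteins such as Rps16 and Rps18, and assembly of the head depends on Rps19, whose human counterpart is mutated in Diamond-Blackfan anaemia. Rps19bp1, named for its binding to the Rps19 protein, is linked to 40S assembly and is also known as AROS, a regulator of the deacetylase SIRT1. Ribosomal protein mRNAs usually start with a cytosine followed by a run of pyrimidines, the 5′ terminal oligopyrimidine (TOP) tract, through which their translation is controlled.

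The start of the mRNA is shown because that tract is the feature that ribosomal protein mRNAs share. RefSeq promoter windows (GRCm38.p6) were found for 23 of the 27 members, all but Rps14, Rps20, Rps27a and Rps29. A tract was counted where the annotated start is a C and at least 4 letters that are each C or T follow it on the gene's strand. Of the 23, 6 had it at an annotated start. Each line below gives 30 bases, 5′ to 3′ on the gene's strand, 15 before and 15 from the start, with the tract in capitals.
Fau, chr19:6057932-6057961, plus strand: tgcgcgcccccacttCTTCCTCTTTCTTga
Rps10, chr17:27635230-27635259, minus strand: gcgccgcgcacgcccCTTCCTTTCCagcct
Rps15a, chr7:118116133-118116162, minus strand: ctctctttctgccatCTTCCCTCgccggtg
Rps18, chr17:33955651-33955680, minus strand: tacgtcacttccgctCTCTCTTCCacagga
Rps21, chr2:180257364-180257393, plus strand: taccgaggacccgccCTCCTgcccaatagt
Rps6, chr4:86857353-86857382, minus strand: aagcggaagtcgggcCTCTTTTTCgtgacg
The same stretches are given for Rps19, its head neighbour Rps16, and Rps28, which had the highest fitted change. The tract did not stand at any annotated start of these genes, so no letter is in capitals. Rps19 has further annotated starts, and the most upstream is shown.
Rps19, chr7:24884577-24884606, plus strand: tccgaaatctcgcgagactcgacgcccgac
Rps16, chr7:28350674-28350703, plus strand: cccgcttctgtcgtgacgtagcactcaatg
Rps28, chr17:33824548-33824577, minus strand: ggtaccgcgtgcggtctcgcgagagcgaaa
The 6 of 23 are 26.1% of the members with a window, against 3.01% of 27025 genes with a window. Counted by window, the share was 2.51% on the gene's strand and 3.38% on the other strand. The 6 genes with the tract had fitted changes from 0.03 to 0.10, with a median of 0.06, and the other 17 had a median of 0.01, both on the log2(TPM + 1) scale. An annotated start that lies a few bases from the true one would hide a tract from this search.

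The targeted gene was lower in each library labelled cKO. Rps19bp1 measured 15.2, 11.8, 13.7 and 19.2 TPM in cKO replicates 1 to 4 and 40.9, 44.2, 34.7 and 40.05 TPM in control replicates 1 to 4. The groups did not overlap, and the change was −1.37 on the log2(TPM + 1) scale (SE 0.127, limma adjusted p = 0.000508). In whole ventricle, removal in cardiomyocytes leaves the transcript of other cells in place. In bulk tissue, fewer cells of a type and less RNA per cell cannot be told apart.

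The tissue label was checked against marker genes, since the extraction text speaks of cortical neurons. All 12 cardiomyocyte markers were tested, and their summed level was 40551 to 43712 TPM in cKO and 41992 to 45502 TPM in control, with only Nkx2-5, a cardiac transcription factor, passing the adjusted threshold (lower in cKO). The fitted change was below 0 for 11 of the 12. Of 10 neuronal markers, 3 reached 1 TPM, the highest mean was 8.78 TPM (Tubb3), Neurod1 was listed at 0 in all 8 libraries, and the sums were 14.1 to 18.3 and 8.22 to 16.5 TPM. The 10 mesenchyme and epicardium markers were higher in cKO in 10 of 10, 7 of them past the threshold. Their sums were 1011 to 1275 against 747 to 875 TPM. Over all rows, 44.2% had a fitted change above 0, 2.16% were called higher and 4.23% lower. The 8 endothelial markers were above 0 in 7 of 8 and the 12 erythroid markers below 0 in 12 of 12. The endothelial markers summed to 778 to 882 against 728 to 775 TPM. The erythroid markers summed to 4491, 2789, 2114 and 3893 TPM in cKO replicates 1 to 4. In control replicates 1 to 4 they summed to 2334, 3866, 3645 and 8455 TPM. Control replicate 4 was thus far above the rest, and the other controls lay within the cKO range. None of the endothelial or erythroid markers passed the threshold. The mitochondrially encoded share of TPM was 14.2% ± 1.39 (SD, n = 4) in cKO and 11.9% ± 0.350 (SD, n = 4) in control, without overlap. The part of these differences in the values of the 27 genes was not tested, apart from a rescaling without mitochondrial and globin rows given below.

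None of the 27 small-subunit genes changed at an adjusted p under 0.05. Their fitted changes were small, from −0.13 (Rps20) to 0.21 (Rps28), with 20 above 0 and 7 below. The median was 0.03, beside −0.02 over all tested rows, of which 44.2% had a fitted change above 0. In 21 members the change lay within 0.1 of 0, where the median size of the change over all tested rows, regardless of sign, was 0.103. The test was limma on log2(TPM + 1) over all 15541 rows, two-sided, with Benjamini-Hochberg adjustment, and the smallest adjusted p among the members was 0.0747 (Rps28). The same test called 6.40% of all rows (994 rows, 33.8% of them higher in cKO), 2.16% as higher in cKO and 4.23% as lower. That split depended on the scaling, with 50.2% higher after quantile normalization, 47.8% with median-ratio scaling and 50.1% after rescaling without mitochondrial and globin rows.

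The count of members at lower stringency can be read against the same background. At an unadjusted limma p under 0.05 there were 4 members (14.8%) against 23.7% of all rows. Of these members 3 were higher in cKO and 1 was lower, where 8.36% of all rows were higher and 15.4% lower. The groups did not overlap for 3 members (11.1%) against 15.6% of all rows. In 2 of them cKO was higher (5.33% of all rows) and in 1 lower (10.3% of all rows). Both total shares of members were below those of all rows. The 95% interval of the change lay wholly between −0.5 and 0.5 for 26 of 27 members, and, leaving out Rps27a, no interval reached below −0.28 or above 0.38.

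**Figure D1:**
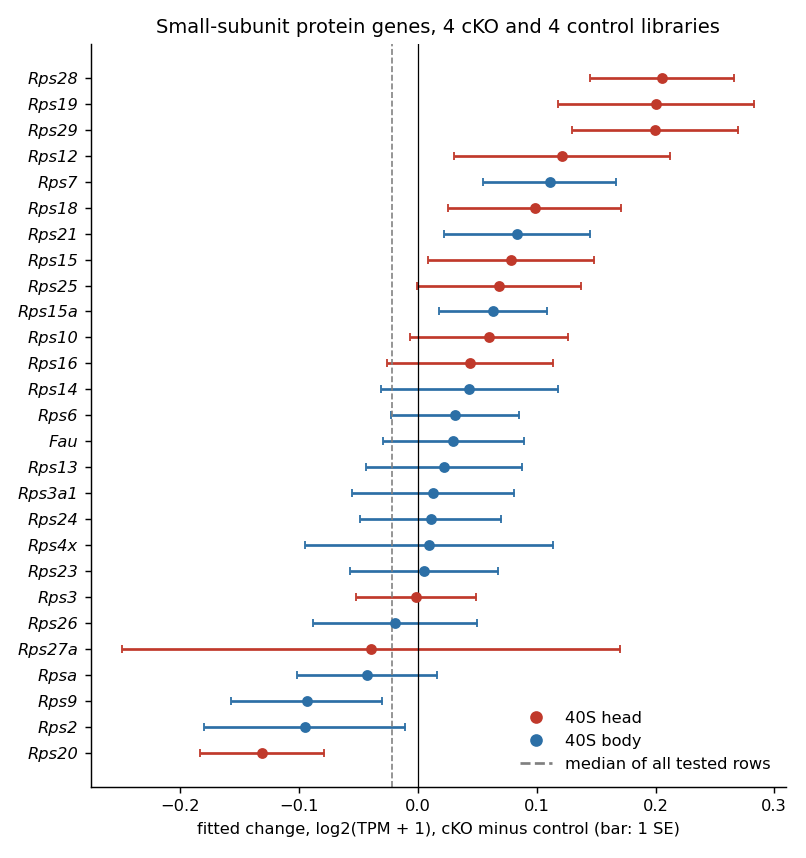
Fitted change of each of the 27 genes on the log2(TPM + 1) scale, cKO minus control (x axis; point: estimate, bar: 1 SE, 4 libraries a group), ordered by change (y axis); red marks the 40S head, blue the body, and the dashed line is the median of all tested rows. The estimates lie between −0.13 and 0.21, and Rps27a has the widest bar, with an SE of 0.209.

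The genes were abundant but differed in level. Mean TPM over all 8 libraries ran from 101.9 (Rps15a) to 2083 (Rps2), a 20.4-fold span, with a median of 940.5. Only Rps15a and Rps20 lay under 200 TPM, and 11 members exceeded the mean level of Rps29. The summed level of all 27 was 2.89%, 2.70%, 2.48% and 2.65% of TPM in cKO replicates 1 to 4 and 2.67%, 2.57%, 2.65% and 2.59% in control replicates 1 to 4. The group means were 2.68% ± 0.168 and 2.62% ± 0.0493 (SD, n = 4 each). The cKO libraries held both the highest and the lowest share, so the groups overlapped.

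In the head, with 12 genes, Rps28 and Rps29 were higher in each cKO library than in each control library. They encode small proteins near the mRNA path. Rps28 (chr17:33823036-33824562, minus strand, GRCm38) sits at the mRNA exit site, and Rps29 (chr12:69157722-69159186, minus strand) is a zinc-binding protein of the head. Rps28 measured 600.1, 598.4, 584.0 and 571.5 TPM in cKO and 543.8, 531.2, 516.5 and 454.1 TPM in control. Each cKO library lay above each control library, with control replicate 4 the lowest of all. The means were 588 ± 13.5 and 511 ± 39.8 TPM (SD, n = 4 each), a change of 0.21 (SE 0.0605, 95% interval 0.07 to 0.34, limma adjusted p = 0.0747, exact two-sided permutation p = 0.0286, the smallest p that 4 against 4 allows). It passed the adjusted threshold under 2 alternatives, after rescaling without mitochondrial and globin rows (0.24, adjusted p = 0.0489) and after correction for a dependence on GC content and length (0.22, adjusted p = 0.0393). With near-identical copies summed the change was 0.13 (adjusted p = 0.160). Without control replicate 4 it was 0.15 (limma adjusted p = 0.123).

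Rps29 measured 1176, 1084, 956.3 and 975.8 TPM in cKO and 877.4, 913.1, 946.7 and 901.1 TPM in control. The groups did not overlap, but cKO replicate 3 and control replicate 3 were less than 10 TPM apart. The means were 1048 ± 102 and 910 ± 28.9 TPM (SD, n = 4 each), a change of 0.20 (SE 0.0701, 95% interval 0.04 to 0.36, limma adjusted p = 0.122, exact two-sided permutation p = 0.0286). Without cKO replicate 1 the change of Rps29 was 0.14 (limma adjusted p = 0.236).

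Rps19 itself (chr7:24884592-24889811, plus strand), the protein that Rps19bp1 binds, did not pass the threshold. It measured 1206, 987.0, 1035 and 920.9 TPM in cKO and 927.8, 825.2, 910.1 and 933.3 TPM in control. The groups overlapped, since cKO replicate 4 lay below control replicates 1 and 4, and cKO replicate 1 was the highest library. The means were 1037 ± 122 and 899 ± 50.3 TPM (SD, n = 4 each), a change of 0.20 (SE 0.0824, 95% interval 0.02 to 0.38, unadjusted limma p = 0.0349, adjusted p = 0.176, exact two-sided permutation p = 0.0857). Without cKO replicate 1 the change was 0.13.

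Rps19 was also set against the mean of the other 26 members within each library, a comparison that is not moved by a scaling of the whole library. This log2 difference was 0.42, 0.21, 0.40 and 0.14 in cKO replicates 1 to 4 and 0.13, 0.04, 0.11 and 0.21 in control replicates 1 to 4. The means were 0.29 ± 0.137 and 0.12 ± 0.0725 (SD, n = 4 each), a difference of 0.17. The groups overlapped, with cKO replicate 4 below control replicate 4. By level, Rps19 ranked 12 to 14 among the 27 genes in cKO and 13 to 15 in control.

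Rps16 and Rps18, which sit beside Rps19 in the head, showed smaller changes. Rps16 (chr7:28350689-28352698, plus strand), whose tail reaches toward the transfer RNA, measured 1259, 1172, 1056 and 1030 TPM in cKO and 1108, 1057, 1068 and 1136 TPM in control. Its change was 0.04 (SE 0.0696, 95% interval −0.11 to 0.20, limma adjusted p = 0.749). Leaving out cKO replicate 1 turned it to −0.01, and over the other leave-outs it ran up to 0.09. Rps18 (chr17:33951998-33955665, minus strand), which takes part in a bridge to the large subunit, measured 1465, 1339, 1162 and 1328 TPM in cKO and 1285, 1267, 1201 and 1180 TPM in control. Its change was 0.10 (SE 0.0724, 95% interval −0.06 to 0.26, limma adjusted p = 0.457). Leaving out cKO replicate 1 gave 0.05, and leaving out cKO replicate 3 gave 0.16. In both genes the groups overlapped, cKO replicate 1 was the highest library, and the lowest was also a cKO library.

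**Figure D2:**
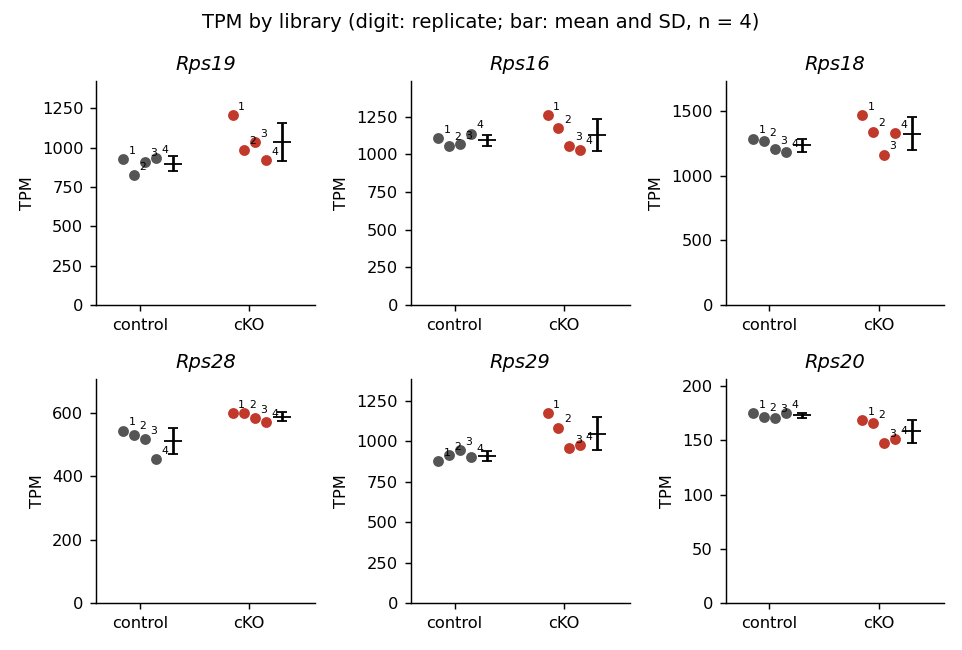
TPM (y axes, from 0) of 6 genes of the 40S head in each library, grouped as control and cKO (x axes); each point is 1 library with its replicate number, and the bar gives the mean and SD (n = 4). Rps28 and Rps29 are higher and Rps20 lower in each cKO library than in each control library, while Rps19, Rps16 and Rps18 overlap.

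Rps20 (chr4:3831584-3835655, minus strand), a head protein next to Rps3, was the member furthest in the other direction. It measured 168.9, 166.0, 147.8 and 150.9 TPM in cKO and 175.1, 171.9, 171.0 and 175.4 TPM in control. Each cKO library lay below each control library, and the controls spanned less than 5 TPM. The means were 158 ± 10.6 and 173 ± 2.23 TPM (SD, n = 4 each), a change of −0.13 (SE 0.0520, 95% interval −0.25 to −0.02, limma adjusted p = 0.161, exact two-sided permutation p = 0.0286). The value rests on a gene with a near-identical copy of higher level, Gm4332 (99.7% identity, 186 TPM), and with copies summed the change was −0.06. The change also moved with the scaling. It was −0.058 after quantile normalization (limma adjusted p = 0.534) and −0.104 with median-ratio scaling (adjusted p = 0.251). After rescaling without mitochondrial and globin rows it was −0.096 (adjusted p = 0.253).

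The other 6 genes of the head were Rps3, Rps10, Rps12, Rps15, Rps25 and Rps27a. Rps12 had a fitted change of 0.12, Rps15 of 0.08, Rps25 of 0.07 and Rps10 of 0.06, and the limma adjusted p was 0.466 or higher for each. Rps3, which lines the mRNA entry channel and also acts in DNA repair, had a change of 0.00 and the highest adjusted p of all members, 0.987. Rps27a, made as a fusion of ubiquitin and a 40S protein, had a change of −0.04 and is described with its copies.

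The fitted changes of the 15 genes of the body ranged from −0.10 (Rps2) to 0.11 (Rps7), 11 above 0 and 4 below, with a median of 0.01. None of the 15 had an unadjusted p under 0.05 (23.7% of all rows) or groups without overlap (15.6% of all rows), and the smallest adjusted p was 0.263 (Rps7). In the head the median was 0.07, 9 of 12 genes were above 0, 4 of 12 (33.3%, against the same 23.7%) had an unadjusted p under 0.05 and 3 of 12 (25%, against 15.6%) did not overlap. The difference between head and body was not tested. The split at an unadjusted limma p under 0.05 moved with the scaling. After quantile normalization it was 5 head and 2 body genes, and with median-ratio scaling 3 and 1. After rescaling without mitochondrial and globin rows it was 3 and 2. The shares of all rows under these scalings are not given here. Without cKO replicate 1 the medians were 0.03 and −0.02, with 9 of 12 and 4 of 15 genes above 0, and without cKO replicate 3 they were 0.12 and 0.06.

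Rps2 (chr17:24718121-24721927), at the mRNA entry channel, was the most abundant member. It measured 1928, 1868, 1945 and 2323 TPM in cKO and 2031, 2396, 2019 and 2158 TPM in control. One cKO library lay among the higher controls, and the change was −0.10 (SE 0.0849, 95% interval −0.28 to 0.09, limma adjusted p = 0.544). It was −0.17 without cKO replicate 4, −0.04 without control replicate 2, −0.06 without cKO replicate 2, −0.01 after quantile normalization and −0.06 after rescaling without mitochondrial and globin rows. Rps26 (chr10:128624529-128626506), which contacts mRNA at the exit channel, was the second most abundant. It measured 1658, 1551, 1448 and 1398 TPM in cKO and 1460, 1465, 1566 and 1641 TPM in control. Its change of −0.02 (adjusted p = 0.897) turned to 0.05, 0.0080 and 0.02 under quantile, median-ratio and mitochondrial- and globin-free scaling.

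Rps15a (chr7:118104374-118116147), of the body, was the least abundant member. It measured 107.6, 105.6, 98.07 and 105.6 TPM in cKO and 101.8, 97.93, 102.6 and 96.38 TPM in control, with a change of 0.06 (SE 0.0457, limma adjusted p = 0.445). The groups overlapped. Its change was 0.14 with near-identical copies summed (adjusted p = 0.208), 0.15 with its named pseudogene rows summed (adjusted p = 0.195), 0.12 after quantile normalization and 0.10 after rescaling without mitochondrial and globin rows. Among the remaining body genes, Rps7, needed for 18S RNA processing, had a change of 0.11 and Rps21 of 0.08. Rps14, whose human counterpart lies in the region lost in the 5q deletion syndrome, had 0.04. Rps6, the substrate of S6 kinases, had 0.03, as did Fau, made as a fusion of a ubiquitin-like protein and a 40S protein. Rps13 had 0.02 and Rps3a1, Rps24 and Rps4x each 0.01, Rps23, which takes part in decoding, had 0.00, Rpsa, also known as the laminin receptor, had −0.04, and Rps9 had −0.09.

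The members varied together between libraries of the same group. For 22 of 27 genes the highest library was cKO replicate 1, and for 11 the lowest was cKO replicate 3. Set against the mean of the 4 controls, the median deviation of the members was 0.14, 0.08, −0.06 and 0.01 in cKO replicates 1 to 4 and 0.05, −0.04, 0.02 and −0.01 in control replicates 1 to 4. The number of members above the control mean was 24, 20, 6 and 16 in cKO and 21, 7, 18 and 10 in control. Without cKO replicate 1 the median fitted change of the members was −0.01, with 13 of 27 above 0, and without cKO replicate 3 it was 0.07.

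Large-subunit genes showed the same order of the 4 cKO libraries. The median deviation of 47 large-subunit protein genes was 0.12, 0.06, −0.11 and −0.04 in cKO and 0.04, −0.03, −0.02 and −0.01 in control replicates 1 to 4. The mitochondrially encoded share was 13.2%, 13.2%, 16.2% and 14.1% in cKO and 12.1%, 12.2%, 12.0% and 11.4% in control, so cKO replicate 3, with the lowest members, had the highest mitochondrial share. After rescaling without mitochondrial and globin rows 22 of 27 members were above 0, with medians of 0.11 in the head and 0.05 in the body.

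**Figure D3:**
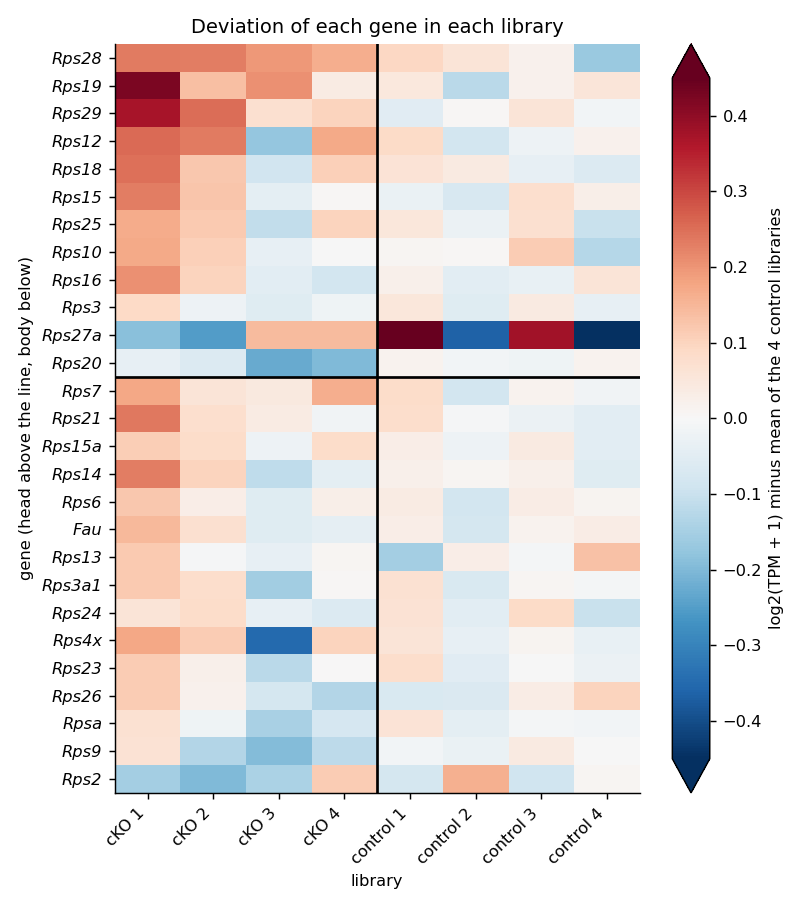
Deviation of each gene (rows, head above the line and body below) in each library (columns) from the mean of the 4 control libraries, on the log2(TPM + 1) scale; red is higher and blue lower. cKO replicate 1 is mostly red, cKO replicate 3 mostly blue, and Rps27a runs from high to low within the control group.

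Near-identical copies limit what a level of these genes means, since short reads can be assigned to either. Searching each member's coding region against the GENCODE M21 transcripts (blastn, at least 95% identity over at least 80% of the region) found 170 copies, with at least 1 for 26 of 27 members, and none for Rps3. Of these, 156 were tied to a row in the table by at least 50% reciprocal overlap, and only those enter the sums. They held 16.9% of the summed level of members and copies, with a median of 11.1% per gene and the highest share at Rps12 (60.2%, 960 TPM in its copies). With copies summed, none of the members passed the adjusted threshold, 20 were above 0, and the median stayed at 0.03. Rps19 had a change of 0.24 with its copies (limma adjusted p = 0.0705). Its groups then did not overlap, as in 15.6% of all rows, with cKO sums of 1023 to 1248 TPM and control sums of 860.5 to 973.8 TPM. That separation rests on the copy Rps19-ps6, whose level varied widely between libraries. In cKO replicate 4, the lowest cKO sum, the gene held 920.9 TPM and its copies 102 TPM, of which Rps19-ps6 held 85.5 TPM. For the gene alone the groups overlapped.

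Rps27a (chr11:29545842-29548040, minus strand) showed the widest spread between replicates. It measured 438.6, 419.6, 552.5 and 551.8 TPM in cKO and 691.7, 388.8, 649.9 and 358.0 TPM in control. The highest and the lowest library were both controls, 1.93-fold apart, and the coefficient of variation over the 8 libraries was 24.4%, against a median of 6.62% over the members. Its processed pseudogene Rps27a-ps2 (chr9:83409660-83410126, 99.8% identity) measured 316, 327, 217 and 243 TPM in cKO and 196, 268, 203 and 301 TPM in control. The 4 libraries with the lowest Rps27a had the 4 highest values of Rps27a-ps2. A further pseudogene, Rps27a-ps3, measured 161, 147, 138 and 176 TPM in cKO and 134, 157, 144 and 133 TPM in control. Summed with all its copies, Rps27a measured 916, 895, 910 and 972 TPM in cKO and 1023, 817, 999 and 793 TPM in control. The sums were 1.29-fold apart at most, with a coefficient of variation of 8.94%. The change was −0.04 (SE 0.209) for the gene and 0.03 (SE 0.0865) for the sum.

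**Figure D4:**
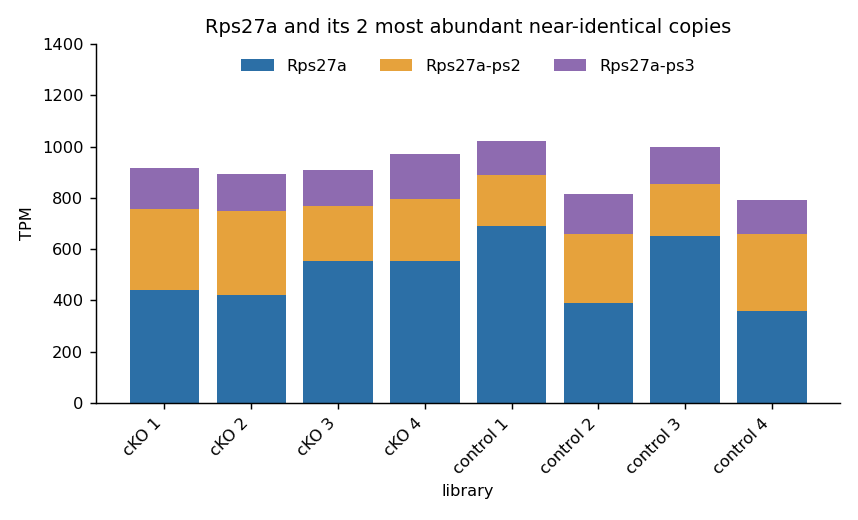
TPM of Rps27a and of its pseudogenes Rps27a-ps2 and Rps27a-ps3, stacked (y axis), in each library (x axis). Rps27a runs from 358.0 to 691.7 TPM while the stacks differ less, since Rps27a-ps2 is high where Rps27a is low.

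Most other rows that overlap a member hold little signal. Rows named as small nucleolar RNAs (Snora or Snord) lie inside Rpsa, Rps2, Rps3, Rps3a1, Rps12 and Rps13 and measured at most 11.8 TPM on average. Other short rows on the same strand include LOC115487513 in Rps12 (mean 12.0 TPM) and AF357399 in Rps16 (mean 3.82 TPM). Ccdc84, on the opposite strand at Rps25, had a mean of 12.8 TPM. The sources used here do not state whether counting used strand.

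Outside the list, 1 of 8 other small-subunit genes passed the threshold, against 6.40% of all rows. Rps27l, a relative of Rps27 and a p53 target, measured 288.8, 271.4, 276.3 and 242.8 TPM in cKO and 201.7, 187.0, 172.2 and 196.8 TPM in control. The groups did not overlap, with cKO higher, as in 5.33% of all rows. Rps27l rose by 0.51 (SE 0.0669, limma adjusted p = 0.00359). Rps4l, a relative of Rps4x, had −0.30 (adjusted p = 0.0550). The 8 such genes had a median of 0.05, with 6 above 0.

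The large subunit and the assembly factors gave no calls, where 6.40% of all rows were called. Of 47 large-subunit genes, 24 were above 0 and 23 below, with a median of 0.00, 6 at an unadjusted limma p under 0.05 (2 higher, 4 lower; over all rows 8.36% were higher and 15.4% lower) and a smallest adjusted p of 0.116. Of 21 factors that assemble the pre-40S particle, such as Nob1, which cuts the 18S precursor, and Tsr2, a carrier of Rps26, 6 were above 0 and 15 below, with a median of −0.05. Among them only Pdcd2l, a chaperone-like protein of 40S assembly, had an unadjusted limma p under 0.05, with a change of −0.18 (adjusted p = 0.203). Such an unadjusted p was found in 23.7% of all rows.

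Most other mRNAs known to carry a TOP tract had fitted changes below 0. Of 15 such genes, mostly elongation and initiation factors, 2 were above 0 and 13 below, with a median of −0.11. The search of annotated starts used for the members found the tract in 2 of the 9 with a window. Eif4b, a helper of the initiation helicase, fell from 214 ± 6.22 to 187 ± 7.82 TPM (SD, n = 4 each; −0.19, limma adjusted p = 0.0374), and Nap1l1, a histone chaperone, fell from 242 ± 13.8 to 198 ± 19.8 TPM (−0.30, adjusted p = 0.0390). Of 10 genes that control TOP translation, 3 were above 0 and 7 below, with a median of −0.04. Larp1, which binds the TOP tract, fell from 61.9 ± 2.96 to 52.7 ± 3.03 TPM (SD, n = 4 each; −0.23, limma adjusted p = 0.0401). These lists were described by counts only, and their difference from the members was not tested. Over all rows, 44.2% had a fitted change above 0, and 4.23% were called lower. The calls in these lists were not examined under other scalings. Over all rows, the lower calls went from 658 to 380 after quantile normalization and to 419 with median-ratio scaling.

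**Figure D5:**
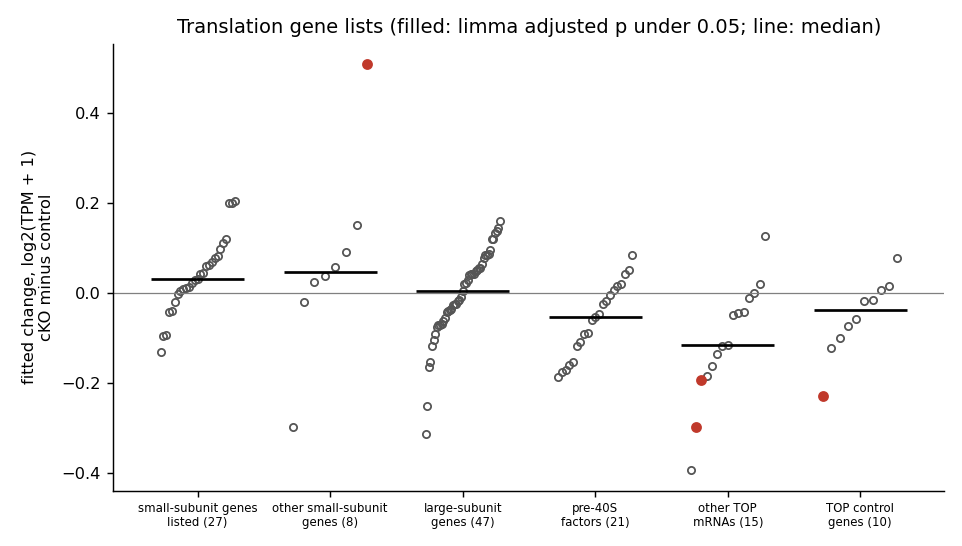
Fitted change on the log2(TPM + 1) scale, cKO minus control (y axis), of each gene in 6 lists (x axis, number of genes in brackets); filled points have a limma adjusted p under 0.05 and the line is the median of the list. The 27 members and the large-subunit genes hold no filled point, and Rps27l is the filled point at 0.51.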

How the data were processed

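The authors deposited one table of TPM values for 8 libraries, and each column sums to the same total. The submitters' processing notes name FastQC, Trim Galore 0.6.7, HISAT2 2.2.1, StringTie 2.2.1, featureCounts, DESeq2 and GRCm38 without their roles, and the use of strand is not given in the sources used here. The extraction text speaks of depletion of ribosomal RNA, and the series text of a stranded poly(A) mRNA kit. TPM keeps no depth, so no counting error could be given. Values were analysed as log2(TPM + 1) with limma 3.58.1 in R 4.3.3 (eBayes with a trend) on rows with a mean of at least 1 TPM. Changes on this scale understate those of low genes. Copies were searched with blastn 2.17.0 and tied to table rows by at least 50% reciprocal overlap. Of the table's rows, 49626 matched a RefSeq GRCm38.p6 gene by symbol and chromosome and 49625 had the same start and end, among them all 27 members. Another 7 rows of 3 members on alternate scaffolds were at 0 TPM. The scripts were tested on simulated data with changes larger than any fitted for the members, so that test does not cover changes of their size. Values in each library were given for Rps19, Rps16, Rps18, members with an unadjusted p under 0.05, the 2 lowest fitted changes and the 2 highest and 2 lowest mean levels, and Rps27a was added after its values were seen. Other lists were limited to at most 4 called genes. The members and lists were chosen with earlier results of these data known.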

Additional observations from a re-analysis of the deposited data

Results flagged for a closer look

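In 3 of 58 groups of 4 libraries examined (each member in each group, and 2 measures over the members), 1 library lay far from the other 3 by Dixon's criterion, and chance alone gives about 1 in 20. Rps2 in cKO was high in replicate 4, at 2323 TPM. Rps4x in cKO was low in replicate 3, at 1048 TPM. Fau in control was low in replicate 2, at 876 TPM.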

How the results depend on the processing

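No member passed the adjusted threshold in 20 of 22 alternatives, and 1 did (Rps28) after rescaling without mitochondrial and globin rows and after removal of a GC and length trend. The calls over all rows, 994, moved to 347 with no filter on low values, 609 without a trend in eBayes and 420 with a replicate block, and to between 390 and 938 with a library left out. Whether the replicate numbers pair the libraries was not settled. Same-numbered deviations correlated at −0.01, 0.07, 0.06 and −0.09. Among 4 candidates each, 4 of 8 libraries correlated best with their own number. The block called none of the members. With a library left out, 0 members were called each time, the median change ran from −0.01 to 0.07, Rps16 from −0.0101 to 0.0861 and Rps26 from −0.0643 to 0.0179. Rps16 was −0.0101 without cKO replicate 1. Rps26 was 0.0515 after quantile normalization, 0.0080 with median-ratio scaling and 0.0160 after the rescaling. The causes were not tested. The change of Rps19 ran from 0.13 to 0.26 over all alternatives (adjusted p 0.0702 to 0.368), and its difference from the other members moved from 0.17 to between 0.13 and 0.22. Summing the copies was chosen after seeing the data. Depth is unknown.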

Other observations

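Some rows of near-identical copies varied widely between libraries. Rps19-ps6 (chr12:110898079-110898588, 98.9% identity to the Rps19 coding region), which lies within Tecpr2 on the same strand, measured 26.0, 71.7, 20.6 and 85.5 TPM in cKO and 11.8, 20.2, 11.5 and 27.9 TPM in control. The groups overlapped, and the change was 1.30 (SE 0.450, limma adjusted p = 0.117). Rps15-ps2 measured 24.1, 13.7, 97.0 and 59.1 TPM in cKO and 81.3, 27.96, 39.4 and 10.4 TPM in control, a 9.32-fold range. There were 114 tested rows that bear the name of a copy, a few of which had failed the overlap rule and were not summed. Of these, 77 had a fitted change above 0, with a median of 0.04, where 44.2% of all rows were above 0. An unadjusted limma p under 0.05 was found for 5 of the 114, against 23.7% of all rows, and none passed the adjusted threshold. These rows were chosen after their values were seen.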
